A study of Mus musculus with 66 samples.

Results

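The genes described here encode voltage-gated sodium and calcium channels, and they were taken as every entry of the gene FPKM table whose symbol reads Scn, a number and the letter a or b, or starts with Cacna or Cacnb. The rule found 31 of 24138 entries, and each of the 31 is a single gene. RNA of the nucleus accumbens (NAcc), the ventral part of the striatum, was sequenced from male C57BL/6J mice that had received saline or 20 mg/kg cocaine intraperitoneally at ZT3, ZT being the hours since lights on, and were killed at ZT7, ZT11, ZT15, ZT19 or ZT23. A further set was taken at ZT3 and is listed in both the saline and the cocaine series of its genotype. Each of the 22 groups held 3 libraries, which gave 66 distinct libraries. ZT3, ZT7 and ZT11 were light hours, and ZT15, ZT19 and ZT23 dark hours.

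The WT groups were labelled wild type, and whether these mice carried floxed Drd2 alleles is not given in the sources used here. The iMSN-D2RKO groups carried floxed alleles of Drd2, the dopamine D2 receptor gene, together with a Cre recombinase driven by the D1 receptor promoter. That Cre removes D2R from indirect pathway medium spiny neurons (iMSN) because their embryonic precursors express both receptors. The genotypes were compared under saline and under cocaine, and cocaine with saline within each genotype, to ask how the drug and the receptor act on daily gene expression.

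Voltage-gated channels open when the membrane is depolarized. In sodium channels one large alpha subunit forms the pore that carries the upstroke of the action potential, and beta subunits adjust gating and anchor the channel at the surface. In calcium channels the alpha1 subunit, encoded by a Cacna1 gene, forms the pore, alpha2delta subunits (Cacna2d) lie on the outer face and beta subunits (Cacnb) bind inside. L-type channels couple activity to gene expression, P/Q-, N- and R-type channels trigger transmitter release, and T-type channels open near the resting potential. Scn4b is known as a gene of high expression in striatal spiny neurons, where its protein supports resurgent sodium current.

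FPKM are a sequencing measure that corrects for the length of a gene and for library size, so they allow levels to be compared between genes. Drd2 came first as a check of the labels. Its FPKM ran from 99.6 over a median of 126 to 279 in the 18 libraries of the WT saline series, and from 78 over 107 to 375 in those of the iMSN-D2RKO saline series. The ranges overlapped, and the difference was -0.02 on the log2(FPKM + 1) scale (adjusted p = 0.978). The value covers all exons of the gene, so it does not check a deletion within the gene, and Drd2 is also expressed outside iMSN. Spiny neuron markers were high, with 9 of 10 listed markers found and their summed FPKM from 2481 over a median of 4078 to 15384. Markers of other cells were also found. The 6 oligodendrocyte markers summed to between 1793 and 5580 FPKM, and the 7 interneuron markers to between 733 and 3976 FPKM. Most of the interneuron sum came from Sst (mean 985 FPKM) and Npy (224 FPKM). Pvalb had a mean of 44.9 FPKM, and Chat (11 FPKM), Nos1 (9.28 FPKM), Th (8.34 FPKM) and Vip (2.85 FPKM) were lower. The 6 markers of cortical glutamatergic neurons summed to between 8.13 and 294 FPKM. The 3 of choroid plexus and ependyma summed to between 2.3 and 1123 FPKM. At ZT3 the choroid plexus and ependyma sum ran from 67.3 to 119 FPKM in WT and from 60.7 to 174 FPKM in iMSN-D2RKO. After ZT3 its median was 6.02 FPKM in WT saline and 6.43 FPKM in WT cocaine, with highest sums of 17.3 and 326 FPKM. In iMSN-D2RKO it was 6.54 FPKM after saline and 7.56 FPKM after cocaine, with highest sums of 1123 and 67.8 FPKM. What part this ZT3 difference has in the dark against light and rhythm results below was not tested. The highest spiny neuron, interneuron and choroid plexus sums were all in light hours of iMSN-D2RKO saline. Those hours include ZT7 replicate 1, whose total of 690048 FPKM lay above the next highest, 465297 FPKM. In such bulk tissue fewer cells of a type and less RNA per cell cannot be told apart.

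Along the main axis of the differences within groups, computed on 9524 genes without the channels and their partners, 13 libraries stood apart from the other 53. Of these set-apart libraries 6 were WT and 7 iMSN-D2RKO, and 12 were from dark hours. The dark hours held 3 of 9 libraries of this kind in WT saline, 3 of 9 in WT cocaine, 4 of 9 in iMSN-D2RKO saline and 2 of 9 in iMSN-D2RKO cocaine, and the light hours held 1 of 9, in iMSN-D2RKO cocaine. A further 4 libraries lay far out on the second axis. They were WT cocaine ZT15 replicate 3, WT cocaine ZT19 replicate 2, iMSN-D2RKO saline ZT7 replicate 1 and iMSN-D2RKO saline ZT23 replicate 2.

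Of the 31 genes, 25 reached 1 FPKM in at least 1 library and were tested. The other 6 stayed below 1 FPKM in all 66 libraries. They were the sodium channel genes Scn4a, Scn7a, Scn10a and Scn11a and the L-type genes Cacna1s and Cacna1f. Their mean ran from 0.00535 FPKM for Scn4a to 0.259 FPKM for Scn7a.

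Sodium channel beta subunits were abundant. Scn4b ran from 48.3 over a median of 229 to 527 FPKM in the 66 libraries, and it was the highest of all members in 52 of them. Scn2b ran from 37.1 over 75.5 to 111 FPKM, and Scn3b from 26.8 over 42.1 to 64.5 FPKM. The means of Scn4b, Scn2b and Scn3b lay above that of Scn8a, although the range of each overlapped with that of Scn8a (20.5 to 85.5 FPKM).

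Among sodium channel alpha genes Scn8a was the highest in all 66 libraries, with 20.5, 32.6 and 85.5 FPKM as lowest, median and highest value. Scn8a encodes the channel of nodes and axon initial segments. Scn1a, a main channel of fast-spiking interneurons, ran from 5.94 over 16.8 to 40.3 FPKM, and Scn3a, best known from the developing brain, from 3.27 over 12 to 24.1 FPKM. Scn9a, a channel of sensory neurons, had a mean of 1.25 FPKM. Scn2a, the other main alpha gene of the adult forebrain, is listed under its older symbol Scn2a1, which the rule does not match. It had a mean of 51 FPKM, above the 42.7 FPKM of Scn3b, and lay above Scn8a in 64 of 66 libraries.

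The L-type genes of the brain were low. Cacna1c had 4.12, 8.05 and 36.5 FPKM as lowest, median and highest value, and Cacna1d 2.21, 5.14 and 14.5 FPKM, with Cacna1c above Cacna1d in 60 of 66 libraries. The genes of presynaptic channel types were higher. Cacna1e (R-type) ran from 3.4 over 24 to 104 FPKM and Cacna1a (P/Q-type) from 16.3 over 22.7 to 68.8 FPKM. Cacna1e lay above Cacna1a in 36 of 66 libraries, so their order was not fixed, while Cacna1b (N-type), with 6.58, 14.4 and 39.7 FPKM, was the lowest of these 3 in 65 of 66. Among T-type genes Cacna1h (12.2, 20 and 66.4 FPKM) lay above Cacna1i (7.79, 18.5 and 49.8 FPKM) in 50 of 66 libraries, and Cacna1g had 2.85, 5.57 and 21.6 FPKM.

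Of the alpha2delta genes, Cacna2d3 was the highest in all 66 libraries and had the values 53.1, 72.9 and 118 FPKM as lowest, median and highest. Cacna2d2 followed with 11.6, 24.9 and 47.6 FPKM and Cacna2d1, whose protein binds gabapentin, with 12.2, 20.3 and 54.8 FPKM. Cacna2d1 exceeded Cacna2d2 in 17 of 66 libraries, and Cacna2d4 had a mean of 0.654 FPKM. Of the calcium channel beta genes, Cacnb3 (41.9, 76.5 and 162 FPKM) and Cacnb1 (40.7, 73.8 and 117 FPKM) were alike in level, with Cacnb3 above Cacnb1 in 36 of 66 libraries. Cacnb4 had 11, 39.1 and 63.7 FPKM and Cacnb2 11.7, 17.6 and 53.8 FPKM.

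**Figure D1:**
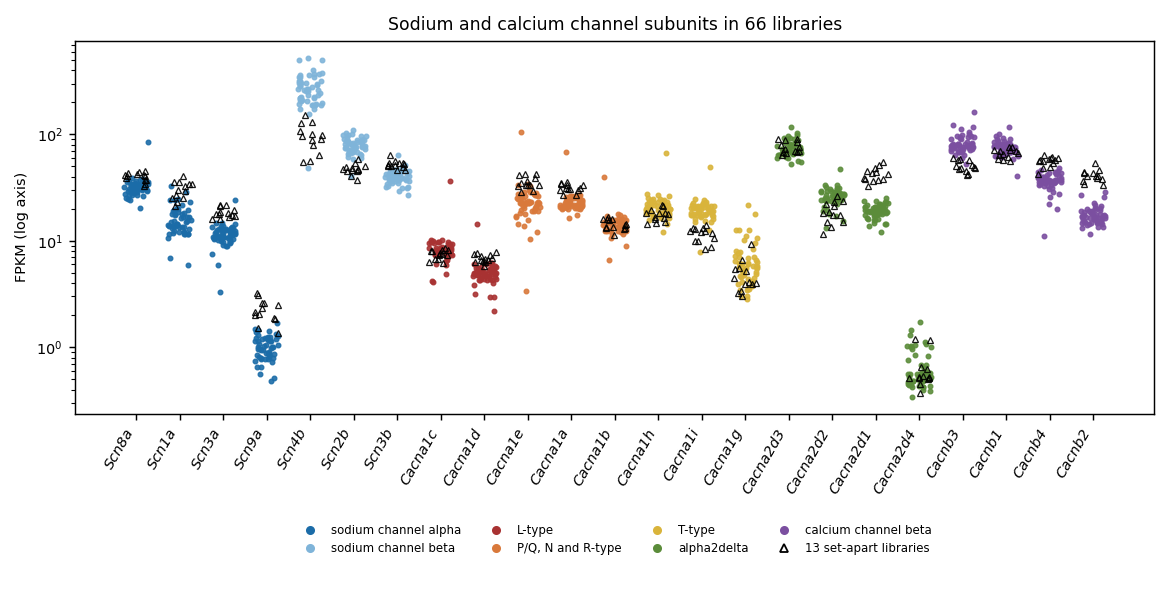
FPKM (log axis) of 23 tested channel genes, ordered by role, in each of 66 libraries. Filled points are the 53 other libraries and open triangles the 13 set-apart libraries, which lie low for Scn4b, Scn2b and Cacnb3 and high for Cacna2d1 and Cacnb2.

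Single libraries set many of the highest and lowest values. WT cocaine ZT15 replicate 3 held the highest value of 13 of 25 members, among them Cacna1c (36.5 FPKM), Cacna1e (104 FPKM), Cacna1h (66.4 FPKM) and Scn8a (85.5 FPKM). In comparison it held the highest value of 20.1% of all 14643 genes tested. The replicates of its group had 8.72 and 7.3 FPKM of Cacna1c. iMSN-D2RKO saline ZT7 replicate 1 held the lowest value of 7 of 25 members, against 22.1% of all genes.

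Scn2b (chr9:45117876-45130070) and Scn4b (chr9:45138624-45154155) lie next to each other on chromosome 9 of GRCm38, on the same strand and 8553 bases apart, and their differences had the same sign in several comparisons below. The 250 bases upstream of each start are therefore shown, from RefSeq on GRCm38.p6, at chr9:45117626-45117875 for Scn2b and chr9:45138374-45138623 for Scn4b, together with one upstream stretch of Cacna1c at chr6:119196410-119196659 on the minus strand, the member with the smallest rhythm p. RefSeq lists 2 further starts for Cacna1c, with upstream stretches at chr6:119108496-119108745 and chr6:118757975-118758224, and the stretch shown is the only one of its 3 that holds the motif marked. All are written 5′ to 3′, and capitals mark the core of the cAMP response element, TGACG or its complement CGTCA.
Scn2b: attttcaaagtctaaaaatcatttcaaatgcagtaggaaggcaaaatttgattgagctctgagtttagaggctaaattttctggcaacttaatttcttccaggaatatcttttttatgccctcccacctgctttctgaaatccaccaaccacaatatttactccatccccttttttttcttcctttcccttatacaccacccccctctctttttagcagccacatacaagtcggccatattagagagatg
Scn4b: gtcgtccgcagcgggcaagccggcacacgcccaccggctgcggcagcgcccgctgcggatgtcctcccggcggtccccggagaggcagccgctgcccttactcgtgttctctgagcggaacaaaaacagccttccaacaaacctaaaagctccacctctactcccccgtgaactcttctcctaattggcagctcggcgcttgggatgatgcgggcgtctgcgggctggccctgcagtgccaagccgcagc
Cacna1c: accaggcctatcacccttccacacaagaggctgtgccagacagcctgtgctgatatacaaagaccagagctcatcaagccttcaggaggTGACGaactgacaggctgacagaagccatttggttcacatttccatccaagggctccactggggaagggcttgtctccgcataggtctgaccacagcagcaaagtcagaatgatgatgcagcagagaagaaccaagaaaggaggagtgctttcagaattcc
The Scn2b stretch is poor in G and C (38.4%), and the Scn4b stretch is rich (66%). On either strand none of the 23 members with a RefSeq promoter held the E-box CACGTG, which 6.86% of 27025 genes with a promoter hold. The D-box TTATGTAA or TTACGTAA (1.1% of genes), the full cAMP response element TGACGTCA (1.77%) and the ROR element TAGGTCA (2.55%) were also not in these windows. The core TGACG was found for 6 of 23 members, which were Cacna1b, Cacna1c, Cacna1i, Cacna2d1, Cacnb2 and Scn10a, against 19.8% of genes with a promoter.

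The genotypes were first compared over all time points. Under saline, 0 of 25 members differed between iMSN-D2RKO and WT, where 0.189% of 14287 genes did (limma with time point as a factor, 18 against 18 libraries). At an unadjusted p under 0.05 there was 1 member, Scn3b, against 10% of genes. Scn3b ran from 31.1 over 45.8 to 53.7 FPKM in WT and from 26.8 over 37.6 to 56.1 FPKM in iMSN-D2RKO. The WT median was higher and the ranges overlapped, and the difference was -0.16 on the log2(FPKM + 1) scale (95% interval -0.31 to -0.01, adjusted p = 0.481). The median difference over the 25 members was -0.03, beside 0.01 over all genes, and 17 of 25 were below 0. The lowest single difference was -0.28 (Scn4b), and no 95% interval reached beyond -0.67 or 0.44.

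Under cocaine, 0 of 25 members differed between the genotypes (0.0487% of 14382 genes, 15 against 15 libraries), and 0 had an unadjusted p under 0.05 (3.55% of genes). Scn3b again had the smallest p, with a difference of -0.14 (95% interval -0.31 to 0.02). The median was 0.01, as over all genes, and intervals reached from -0.45 to 0.74, the widest being that of Scn4b.

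At ZT3 alone Scn3b had 51.5, 43.2 and 41.8 FPKM in WT and 38.7, 26.8 and 36.4 FPKM in iMSN-D2RKO. All iMSN-D2RKO values were lower than all WT values, and the difference was -0.42 on the log2(FPKM + 1) scale (SE 0.18), which did not pass the adjustment over 14643 genes (adjusted p = 1). No member did (0 of 25, against 0.041% of genes), and 1 of 25, Scn3b, had an unadjusted p under 0.05, against 2.04% of genes.

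Cocaine was compared with saline over ZT7 to ZT23. In WT, 0 of 25 members changed, as did 0% of 14392 genes, and 0 members had an unadjusted p under 0.05, against 2.54% of genes. Cacna1a had the smallest p, with a difference of 0.20 (95% interval -0.05 to 0.45). Without replicate 3 of every group, which takes out WT cocaine ZT15 replicate 3 among others, it was -0.03, and without the second-axis libraries 0.13. Scn4b differed by 0.00 (95% interval -0.46 to 0.46), and the median over members was 0.01 beside 0.00 over all genes.

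In iMSN-D2RKO, 0 of 25 members changed after cocaine (0% of 14238 genes), and 0 had an unadjusted p under 0.05 (2.98% of genes). Cacnb1 had the smallest p, at 0.12 (95% interval -0.01 to 0.25). Scn4b had the largest difference, 0.46 (95% interval -0.08 to 1.01), and 17 of 25 members were above 0. The median over members was 0.09, beside -0.01 over all genes, and a shift of the members as a set was not tested. The effect of cocaine did not differ between the genotypes for any of the 25 members (0% of 14622 genes), and 0 had an unadjusted p under 0.05 (1.68%). The smallest p was that of Cacnb4, at 0.31 (95% interval -0.11 to 0.72) and 0.03 without the second-axis libraries, and Scn4b differed by 0.46 (95% interval -0.26 to 1.18).

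**Figure D2:**
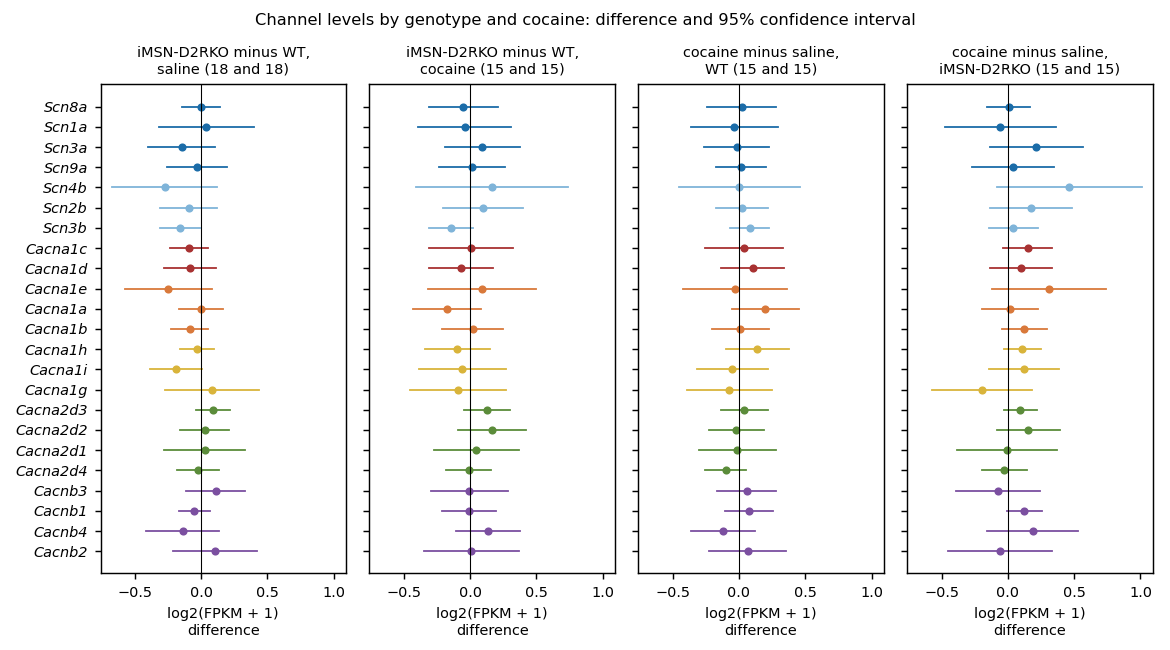
Difference in log2(FPKM + 1) for 23 tested channel genes between genotypes (left panels) and between cocaine and saline (right panels), as points with 95% confidence intervals from limma. Of all 4 comparisons, only the interval of Scn3b under saline leaves out 0, and no member passed the adjustment over all genes.

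Time point by time point, with 3 libraries against 3 and the spread estimated over all 66 libraries, no member passed for cocaine in WT at ZT7, ZT11, ZT15, ZT19 or ZT23 (0.00683%, 0%, 0.00683%, 0.0205% and 0% of 14643 genes). Nor did any in iMSN-D2RKO (0.0137% of genes at ZT7 and 0% at the 4 later times). In WT 1, 0, 2, 4 and 0 members had an unadjusted p under 0.05 at these 5 times, against 1.81%, 0.683%, 6.79%, 4.9% and 1.28% of genes. In iMSN-D2RKO 6, 0, 2, 5 and 0 members did, against 22.9%, 0.41%, 1.49%, 16% and 1.67%.

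At ZT7 in iMSN-D2RKO, Cacnb3 had 162, 85.1 and 118 FPKM after saline and 75.8, 45.6 and 73 FPKM after cocaine. All cocaine values were lower, and the difference was -0.89 (SE 0.27, adjusted p = 0.114). Cacna1e had 3.4, 20 and 27.3 FPKM after saline and 28.2, 29.1 and 25.2 FPKM after cocaine (1.05, SE 0.46, adjusted p = 0.176). The extremes among the saline values came from replicate 1, which stands apart on the second axis, and the lowest Cacnb3 value after cocaine from replicate 2, a set-apart library. Without the set-apart library the differences were -0.66 for Cacnb3 and 1.01 for Cacna1e, with adjusted p of 0.184 and 0.224. Without the second-axis libraries they were -0.66 and 0.22, with adjusted p of 0.655 and 0.726. Without replicate 3 of every group, which leaves these libraries in and removes others, 5 of 25 members passed, where 9.11% of genes did, among them Cacna1b, Cacna1e, Cacnb3 and Scn3a.

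At ZT19 the differences of Scn4b had opposite signs in the genotypes. In WT it had 153, 101 and 279 FPKM after saline and 56.7, 48.3 and 130 FPKM after cocaine, overlapping ranges with a difference of -1.19 (SE 0.52, adjusted p = 0.939). In iMSN-D2RKO it had 98.1, 156 and 64.8 FPKM after saline and 317, 270 and 189 FPKM after cocaine, with all cocaine values higher (1.33, SE 0.52, adjusted p = 0.304). The difference between the 2 effects was 2.52 (SE 0.74, adjusted p = 0.239). It did not pass for this or any other member at ZT19, though 7 of 25 members had an unadjusted p under 0.05, against 20.2% of genes. At ZT7, ZT11, ZT15 and ZT23 this difference passed for 0 of 25 members and had an unadjusted p under 0.05 for 1, 0, 2 and 0 members (6.31%, 0.512%, 3.31% and 1.65% of genes). Genes passing made up 0.0137% at ZT7 and 0% at the other times.

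Of the 12 libraries behind this comparison of Scn4b at ZT19, 6 are set-apart libraries, 2 each in WT saline, WT cocaine and iMSN-D2RKO saline, and 0 are among iMSN-D2RKO cocaine. Low Scn4b values and these libraries go together, and their part in the difference was not tested apart from leaving them out. Without them 1 library is left in each of the WT groups, with 279 FPKM after saline and 48.3 FPKM after cocaine, and 1 in iMSN-D2RKO saline, with 156 FPKM. For cocaine in WT the fit then called 4 of 25 members, where 10.5% of genes were called, and these were Scn4b (-2.51), Scn2b (-0.94), Cacna1i (-1.30) and Cacnb1 (-0.92). In iMSN-D2RKO the effect on Scn4b was smaller than with all libraries, at 0.69 (adjusted p = 1), and 0 members were called. For the difference between genotypes 2 of 25 members were called, Scn4b (3.20, adjusted p = 0.00572) and Scn2b (1.24, adjusted p = 0.0348), where 3.27% of genes were. Such a lone library is assumed to vary like the other groups, and the one left in WT cocaine stands apart on the second axis. Without the second-axis libraries Scn4b differed by -0.92 in WT (adjusted p = 0.596) and by 1.33 in iMSN-D2RKO, and the difference between these effects was 2.25 (adjusted p = 0.117). With the library score, the position on the main axis, as a covariate the values were -0.93 and 0.58, with a difference of 1.51 (adjusted p = 0.546). The signs were the same in all 4 fits, and of these Scn4b passed only in the one without the set-apart libraries. Without replicate 2 of every group its difference between genotypes also passed (adjusted p = 0.0464), as it did for 3 of 25 members and 16.2% of genes.

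Next, dark hours were compared with light hours in each series. All injections were given at ZT3, so the dark hours also lay later after the injection. Time of day and time since the injection cannot be told apart. The ZT3 libraries among the light hours of a cocaine series are those of the saline series, and no dose was assigned to them. In WT saline, 0 of 25 members differed (2.75% of 14643 genes), and 3 had an unadjusted p under 0.05 (27.2% of genes). Cacnb2 had the smallest p, at 0.56 (SE 0.23, adjusted p = 0.116), and 0.16 without the set-apart libraries. Cacna2d1 followed with 0.50 (SE 0.21) and 0.15 without them. The difference of Scn4b was -0.54 (SE 0.30) and -0.10 without them.

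In WT cocaine 1 of 25 members differed (13.7% of genes), and 3 had an unadjusted p under 0.05 (34.5%). Scn4b ran from 173 over 318 to 527 FPKM in the 9 light libraries and from 48.3 over 174 to 503 FPKM in the 9 dark libraries. Most dark values lay below the light median and the ranges overlapped, and Scn4b fell by 1.06 on the log2(FPKM + 1) scale (SE 0.30, adjusted p = 0.0196). Members lower in the dark were 1 of 25, against 3.79% of genes, and none was higher (9.9%). Without the set-apart libraries Scn4b fell by 1.13 (SE 0.19, adjusted p = 1.01e-04) and Scn2b by 0.45 (SE 0.10, adjusted p = 0.00219). These were 2 of 25 members, against 18.1% of genes, and ZT19 is again the lone library with 48.3 FPKM of Scn4b. Without the second-axis libraries, which include that one, Scn4b fell by 1.07 (adjusted p = 0.0239), with 2 of 25 members and 19.4% of genes passing. With the library score as a covariate the difference was -0.52, and 0 members passed, against 4.54% of genes. Without replicates 1, 2 or 3 of every group it was -1.10, -0.91 and -1.18, with 0, 4 and 0 members passing, against 2.75%, 22.2% and 0% of genes. The summed cortical markers ran from 23.9 over 140 to 280 FPKM in these light libraries and from 34.4 over 122 to 294 FPKM in the dark ones, and their part in the difference was not tested.

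In iMSN-D2RKO saline 5 of 25 members differed, where 27.3% of genes did, and 11 had an unadjusted p under 0.05 (44.1%). Higher in the dark were 3 of 25, against 17.4% of genes, and lower 2 of 25, against 9.88%. Scn3b had 26.8, 36.4 and 40.6 FPKM as lowest, median and highest of 9 light libraries and 31.4, 43 and 56.1 FPKM in the dark (0.32, SE 0.10, adjusted p = 0.0227). Scn9a had 0.509, 0.823 and 1.06 FPKM in the light and 0.478, 1.39 and 3.21 FPKM in the dark (0.46, SE 0.15, adjusted p = 0.0282). Cacna2d1 had 12.2, 17.8 and 25.4 FPKM in the light and 14.4, 23 and 48 FPKM in the dark (0.58, SE 0.21, adjusted p = 0.0402). All 3 reached higher in the dark while their ranges overlapped.

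Among the members that fell was Cacnb3, a cytoplasmic beta subunit. It had 73.5, 81.2 and 162 FPKM in the light and 47, 63.9 and 122 FPKM in the dark, and fell by 0.47 (SE 0.16, adjusted p = 0.0279). Ranges again overlapped. Without the 4 set-apart libraries of these dark hours 0 of the 5 passed, with differences of 0.11 for Scn3b, 0.10 for Scn9a, -0.01 for Cacna2d1 and -0.24 for Cacnb3, and 0.215% of genes passed. With the library score as a covariate 0 members and 1.88% of genes passed. Without the second-axis libraries 10 of 25 members and 47.1% of genes did, with 0.36 for Scn3b, 0.55 for Scn9a, 0.62 for Cacna2d1 and -0.51 for Cacnb3. The summed cortical markers ran from 20.7 over 137 to 266 FPKM in these light libraries and from 32.9 over 65.3 to 180 FPKM in the dark ones, and their part was not tested.

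In iMSN-D2RKO cocaine 0 of 25 members differed (0.942% of genes), and 1, Scn3b, had an unadjusted p under 0.05 (12.5% of genes). Its difference was 0.21 (SE 0.10, adjusted p = 0.384). The median over members was 0.08 in WT saline, 0.03 in WT cocaine, 0.03 in iMSN-D2RKO saline and 0.05 in iMSN-D2RKO cocaine, beside 0.05, 0.06, 0.03 and 0.02 over all genes. The saline and cocaine series of a genotype share the ZT3 libraries.

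**Figure D3:**
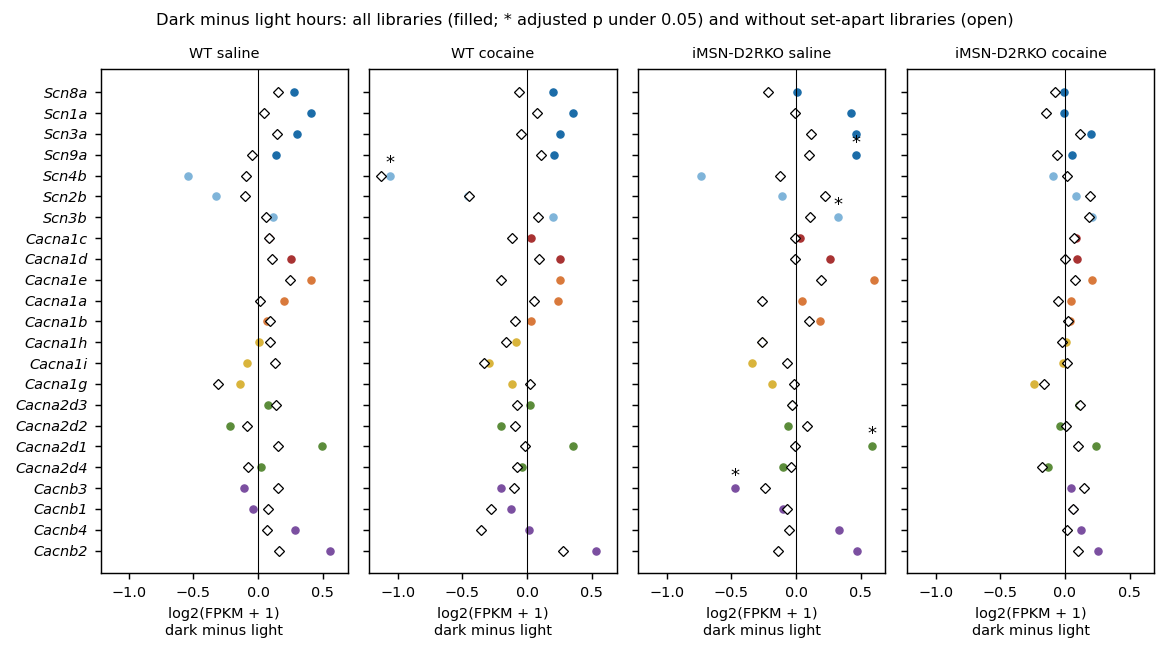
Dark minus light hours in log2(FPKM + 1) for 23 tested channel genes in each series. Filled points use all libraries, with an asterisk at an adjusted p under 0.05, and open diamonds leave out the set-apart libraries. Scn4b in WT cocaine keeps its place at -1.06 and -1.13, whereas the 4 starred genes of iMSN-D2RKO saline move towards 0.

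Daily rhythm was tested with JTK_CYCLE at periods of 20 and 24 h, and an exact p below 0.01 was called rhythmic. Here too, time of day and time since the injection at ZT3 cannot be told apart. In WT saline 2 of 25 members were rhythmic, where 9.81% of 13940 genes were, and 6 of 25 had an exact p below 0.05 (23.7%). Cacna1c had 7.62, 7.33 and 7.29 FPKM at ZT3, 7.51, 7.46 and 8.03 at ZT7, 8.56, 8.59 and 7.44 at ZT11, 9.56, 9.88 and 8.59 at ZT15, 8.17, 8.62 and 8.04 at ZT19 and 6.79, 7.63 and 7.54 at ZT23. It rose to ZT15 and returned by ZT23, with a highest mean 1.28 times the lowest (exact p = 1.98e-04, adjusted over all genes 0.0207). This uses 17 of 18 values, since Dixon's test left out the lowest ZT11 value, and with all 18 the exact p was 0.00255. Without the set-apart libraries it was 6.16e-04, and with the library score removed 0.0216.

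In the other series Cacna1c was not called, with exact p of 0.0981 in WT cocaine, 0.84 in iMSN-D2RKO saline and 1 in iMSN-D2RKO cocaine. Scn3a was the second rhythmic member of WT saline, with means from 10.3 ± 0.918 FPKM (SD, 3 libraries) at ZT7 to 15.9 ± 2.76 FPKM at ZT19 and an exact p of 0.00255. Its 2 highest values, 17.7 and 17.3 FPKM at ZT19, came from set-apart libraries. Without these libraries the exact p was 0.0128.

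In WT cocaine 3 of 25 members were rhythmic, where 7.61% of 14268 genes were, and 5 had an exact p below 0.05 (19.5%). Scn4b had means of 250 ± 73.1 FPKM at ZT3, 419 ± 93.8 at ZT7, 319 ± 39.1 at ZT11, 357 ± 142 at ZT15, 78.4 ± 45.1 at ZT19 and 151 ± 54.2 at ZT23 (SD, 3 libraries each). It was highest at ZT7 and lowest at ZT19, a 5.34-fold range, with an exact p of 0.00115. Scn2b went the same way, from 92.3 ± 8.99 FPKM at ZT7 to 45.6 ± 11.5 FPKM at ZT19 (exact p = 0.00755). Cacna1h ranged from 15.1 ± 2.89 FPKM at ZT19 to 38.1 ± 24.7 FPKM at ZT15, the latter with replicate 3 at 66.4 FPKM (exact p = 0.00372). The 3 libraries of ZT19 all stand apart, 2 on the first axis and 1 on the second. Once the set-apart libraries were left out, exact p rose to 0.0629 for Scn4b, 0.231 for Scn2b and 0.0435 for Cacna1h, and 2.36% of genes were rhythmic. Without the second-axis libraries it was 5.42e-04, 0.00401 and 0.00401, with 3 of 25 members and 6.62% of genes rhythmic. With the library score removed it was 0.0623, 1 and 0.00372, with 4 of 25 members and 6.99% of genes rhythmic.

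In iMSN-D2RKO saline 1 of 25 members was rhythmic (2.58% of 14135 genes), and 2 had an exact p below 0.05 (11.3%). Cacnb3 went from 122 ± 38.5 FPKM at ZT7 to 60.1 ± 12.4 FPKM at ZT19 (exact p = 0.00372), 0.0201 once the set-apart libraries were left out and 0.00155 once the second-axis libraries were. In iMSN-D2RKO cocaine 0 of 25 members were rhythmic (1.1% of 13944 genes), and 0 had an exact p below 0.05 (4.16%). Cacna1e had the smallest, 0.0981.

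**Figure D4:**
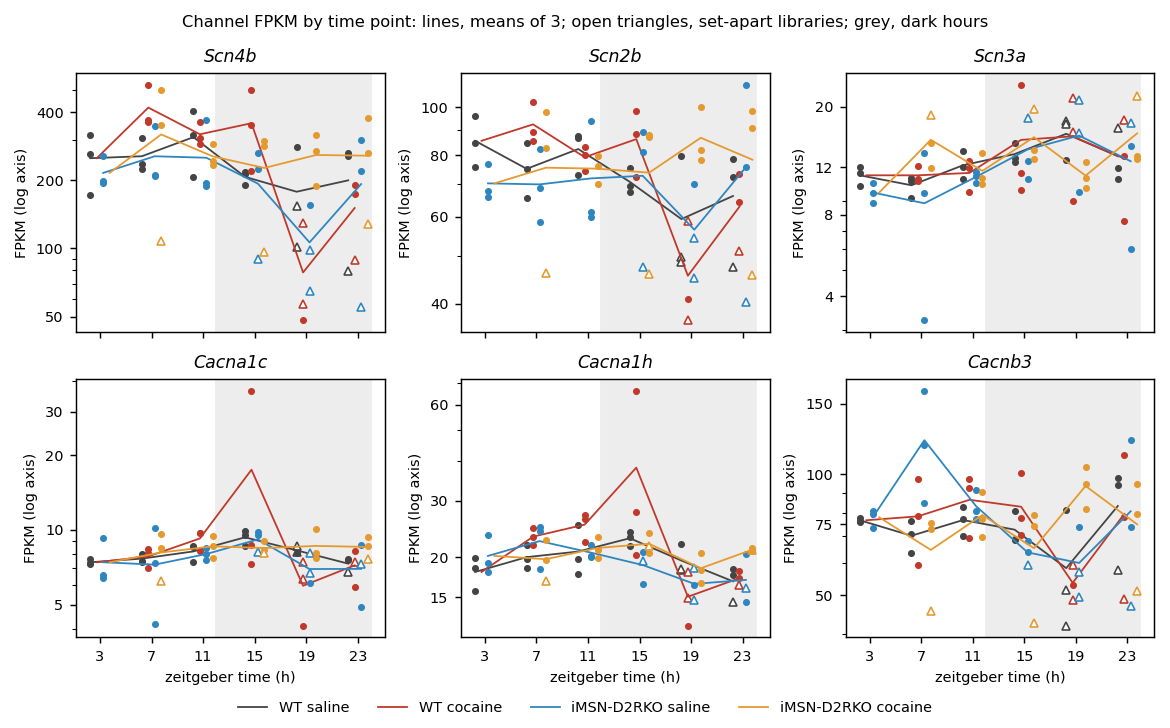
FPKM (log axis) of 6 channel genes by zeitgeber time in the 4 series, with lines through the means of 3 libraries, single libraries as points and set-apart libraries as open triangles, ZT3 being drawn once per genotype. Triangles lie at the low end of Scn4b, Scn2b and Cacnb3 and at the high end of Scn3a, and the Cacna1c and Cacna1h peaks of WT cocaine at ZT15 come from 1 library with 36.5 and 66.4 FPKM.

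Whether rhythm differed between groups was tested directly, by an F test on a 24 h cosine and sine. The test between genotypes under saline included ZT3. The other tests used ZT7 to ZT23 only, whereas JTK_CYCLE used ZT3 in every series. Between the genotypes 0 of 25 members differed under saline (0% of 14287 genes) and 0 under cocaine (0% of 14382). At an unadjusted p under 0.05 there was 1 member under saline, Cacna1h (2.48% of genes), and there were 2 under cocaine, Scn4b and Scn2b (4.83%), with amplitudes of the difference of 1.01 and 0.47 (adjusted p = 0.59 for both). Between cocaine and saline 0 members differed in WT (0% of 14392 genes) and 0 in iMSN-D2RKO (0% of 14238). At an unadjusted p under 0.05 there were 0 members in WT (1.38% of genes) and 1 in iMSN-D2RKO, Cacnb3 (5.54%), with an amplitude of the difference of 0.64 (adjusted p = 0.594). A call in one series and not in another therefore did not come with a detected difference between the series.

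The set-apart libraries were also compared with the others of their groups. Over the 10 groups that held both kinds, 13 of 25 members were higher and 12 lower in the set-apart libraries, with a median difference of 0.02 on the log2(FPKM + 1) scale beside 0.05 over all 14643 genes. Among the lower were Scn4b (-1.25), Scn2b (-0.69), Cacnb3 (-0.63), Cacna1i (-0.56) and Cacna2d2 (-0.38). Higher were Cacnb2 (1.15), Cacna2d1 (1.07), Scn1a (0.89), Cacna1e (0.76), Scn9a (0.68), Cacnb4 (0.67), Scn3a (0.67) and Cacna1a (0.56). Cacna1c (-0.00) and Cacna2d3 (-0.02) hardly differed. The values of 2 of 25 members did not overlap between the 13 set-apart and the other 53 libraries, against 11.2% of genes, and these were Cacnb2, with 33.5 to 53.8 FPKM against 11.7 to 28.9 FPKM, and Cacna2d1, with 33 to 54.8 FPKM against 12.2 to 25.4 FPKM. The share of 11.2% includes genes that defined the split, whereas members were left out of it, so the 2 shares are not fully alike. For Scn4b the set-apart libraries had 55.1 to 153 FPKM and the other 53 had 48.3 to 527 FPKM, so its values overlapped.

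By role, all 3 of Cacna1a (0.56), Cacna1b (0.10) and Cacna1e (0.76) were higher in the set-apart libraries, as were 54.3% of all genes. All 3 T-type genes were lower, Cacna1i by 0.56, but Cacna1g (-0.19) and Cacna1h (-0.06) only slightly. Across the 25 members the difference correlated with the GC content of the longest coding transcript (GENCODE) at Spearman's rho = -0.77, and across 13155 tested genes with such a transcript at -0.65. These correlations are across genes, which share the libraries and are not independent. Genes that defined the split are among the 13155, whereas members were left out of it. Of 14 members with a GC content above the median of all genes (50.5%) 10 were lower, and of 11 members at or below it 9 were higher. The 4 members above it that were higher were Cacna1a (58.4% GC, 0.56), Scn8a (50.8% GC, 0.42), Cacna1b (52.9% GC, 0.10) and Cacna2d4 (52.6% GC, 0.02), and the 2 at or below it that were lower were Cacna2d3 and Cacna1c. With transcript length rho was 0.37 over the members and 0.41 over the genes. Whether base composition accounts for any of these differences was not tested.

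**Figure D5:**
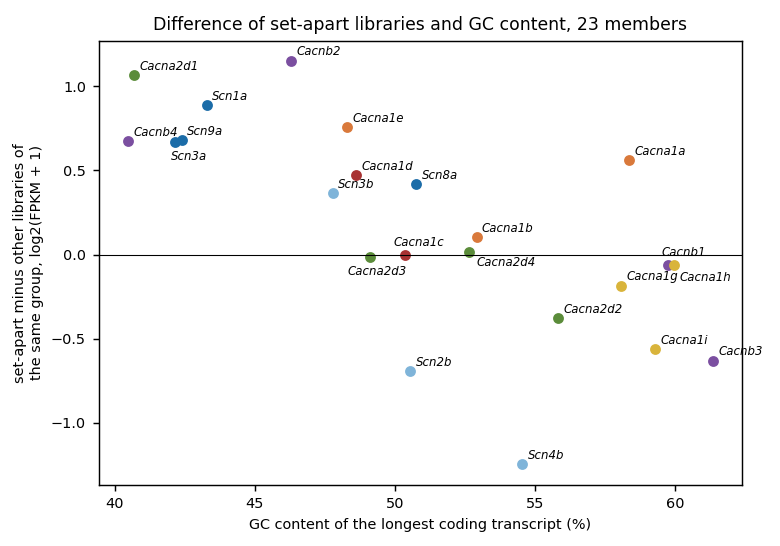
Mean difference in log2(FPKM + 1) between set-apart and other libraries of the same group, against the GC content in percent of the longest coding transcript, for 23 channel genes coloured by role. Genes with little GC such as Cacna2d1 lie above 0 and GC-rich genes such as Cacna1i and Cacnb3 below, with Scn4b lowest at -1.25.

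Partners of the channels, such as Scn2a1, ankyrins, intracellular FGFs, calmodulins, Cacng subunits, Rims and ryanodine receptors, were counted for comparison, with 42 to 44 of 46 entries tested. In the level, ZT3 and per time point comparisons 0 passed. Fgf11, which binds sodium channels, and Nfasc, which anchors them, had the smallest p between genotypes under saline (-0.15 and -0.16), and Cacng3 (-0.26) and Fgf11 (-0.18) under cocaine. For cocaine these were Cntn1 (-0.12) and Calm3 (-0.16) in WT and Ryr3 (0.24) and Cacng7 (-0.13) in iMSN-D2RKO. Between dark and light 0 of 44 partners differed in WT saline (2.75% of genes), WT cocaine (13.7%) and iMSN-D2RKO cocaine (0.942%). In iMSN-D2RKO saline 8 of 44 partners differed, 6 higher and 2 lower. They were led by Akap5 (0.73), a scaffold of L-type channels, and Cacng1 (-0.56). That share lay below the 27.3% of all genes. It was 0 of 44 without the set-apart libraries (0.215% of genes) and 17 of 44 without the second-axis libraries (47.1%). Rhythmic partners numbered 5 of 42 in WT saline, led by Nedd4l and Stac2, against 9.81% of genes. In WT cocaine they numbered 1 of 44 (Cacng1), against 7.61%. They were 2 of 43 in iMSN-D2RKO saline (Fgf11 and Cacng4), against 2.58%, and 0 of 44 in iMSN-D2RKO cocaine, against 1.1%. Without the set-apart libraries they numbered 5, 0, 2 and 0, against 6.37%, 2.36%, 1.21% and 1.91% of genes.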

How the data were processed

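Per the labels and the study's methods, the authors punched ventral striatum, prepared stranded poly(A) libraries, aligned single-end reads to mm10 with TopHat and Bowtie and computed gene FPKM with Cufflinks and Cuffnorm; the labels name CASAVA 1.8.2, Bowtie and Cuffnorm. The deposited FPKM table was used as given, with 24138 entries in 72 columns, of which 6 repeat the ZT3 libraries. All columns were mapped to samples. Read numbers are not known, so precision comes from the 3 libraries of a group, and their total FPKM ran from 364078 to 690048. Whether libraries are single animals is not given in the sources used here, so p-values measure the spread between libraries.

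Entries with at least 1 FPKM in a library of the comparison were tested on log2(FPKM + 1) with limma 3.58.1 in R 4.3.3 (trend, empirical Bayes, Benjamini-Hochberg over all entries, threshold 0.05). A fold change on this scale understates that of low genes. Per time point, ZT3 and dark against light contrasts used one fit of all 66 libraries. Adjusted p in the text are limma's unless called exact. JTK_CYCLE used its exact null distribution, Bonferroni over period and phase, a threshold of 0.01 and Dixon's test at 95% within time points. The order of ties was set by comparison with the study's listed WT saline statistics. The tests were tried on simulated data with known changes. Tables and figures used Python 3.11.15, numpy 2.4.6, pandas 2.3.3 and matplotlib 3.10.9.

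Set-apart libraries were those beyond the largest gap on the first axis (43.5% of the variance within groups) of 9524 genes with a mean above 5 FPKM, members and partners excluded. The second axis held 13.9%, and 4 libraries exceeded a score of 25 on it in size. Leaving those out, and the difference between genotypes at each time point, were added after the data were seen. Members and lists were chosen with earlier results of these data known. Full values were given for members that passed a test, for the 3 highest members of each role and otherwise for the member of smallest p. Alternatives covered the pseudocount, the filter, scaling, a replicate block, libraries left out and the library score. Some members are counted but not reported here.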

Additional observations from a re-analysis of the deposited data

Results flagged for a closer look

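Each tested member was searched at ZT7, ZT11, ZT15, ZT19 and ZT23 for cocaine and saline values that did not overlap in either genotype. Opposite directions in the genotypes were also required. Cacna2d4 at ZT15 was found by this search. The share of all genes with such a pattern was not computed, so a case that arose by chance cannot be told apart. Cacna2d4 had 0.425, 0.525 and 0.557 FPKM after saline and 0.569, 0.584 and 0.96 FPKM after cocaine in WT (0.18 on the log2(FPKM + 1) scale). It had 1.04, 0.536 and 1.04 FPKM after saline and 0.48, 0.344 and 0.51 FPKM after cocaine in iMSN-D2RKO (-0.36). The difference between the 2 effects was -0.54 (SE 0.24, adjusted p = 1 with limma). In WT the cocaine value of 0.96 FPKM came from a second-axis library. In iMSN-D2RKO the saline value of 0.536 FPKM and the cocaine value of 0.51 FPKM came from set-apart libraries. Without the set-apart libraries the differences were 0.18 in WT and -0.53 in iMSN-D2RKO, and -0.71 between them. Without the second-axis libraries they were 0.07, -0.36 and -0.43, and no difference passed in either case. All but 2 of these values are below 1 FPKM.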

How the results depend on the processing

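Counts of members past a threshold in the level, interaction, ZT3 and rhythm difference comparisons stayed at 0 under every alternative run. Between dark and light, 2 members passed in WT saline without the second-axis libraries (14.9% of all genes), against 0. In WT cocaine, against 1, the count was 2 with median-ratio scaling (12.1% of genes), 2 without the set-apart libraries (18.1%), 2 without the second-axis libraries (19.4%), 0 with the library score as a covariate (4.54%) and 0 to 4 without single replicates (0% to 22.2%). In iMSN-D2RKO saline, against 5, the count was 0 with the set-apart libraries left out (0.215%), 0 with the score (1.88%), 10 without the second-axis libraries (47.1%) and 0 to 10 without single replicates (0.368% to 33.3%). For cocaine by time point, against 0, it was 4 in WT without the set-apart libraries, all at ZT19 (10.5% of genes there), and 0 to 5 in iMSN-D2RKO without single replicates, with the 5 at ZT7 (9.11%). For the difference between genotypes it was 2 (3.27% at ZT19) and 0 to 3, with the 3 at ZT19 (16.2%).

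Rhythmic members in WT saline, against 2, numbered 4 without the set-apart libraries (6.37% of genes) and 0 with the score removed (7.18%). At a threshold of 0.05 they numbered 6 (23.7%). After Benjamini-Hochberg adjustment over genes 1 was left (522 of 13940 genes), and without single replicates 0 to 1 (1.46% to 5.67%). In WT cocaine, against 3, they numbered 0 without the set-apart libraries (2.36%), 4 with the score removed (6.99%) and 5 at 0.05 (19.5%). After adjustment they numbered 0 (164 of 14268 genes), and without single replicates 0 to 3 (1.49% to 6%). In iMSN-D2RKO saline, against 1, they numbered 2 with median-ratio scaling (2.6%). Leaving out the set-apart libraries gave 0 (1.21%), as did removing the score (1.92%). At 0.05 there were 2 rhythmic members (11.3%), and after adjustment 0 (1 of 14135 genes). Without single replicates there were 0 to 1 (0.566% to 6.65%). Differences turned direction for Cacna1a after cocaine in WT without replicate 3 (-0.0303, up to 0.33 without replicate 2) and for Cacna2d1 between dark and light in iMSN-D2RKO saline without the set-apart libraries (-0.00917). Causes were not tested.

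Replicate numbers did not pair the libraries. Deviations of same-numbered libraries correlated at -0.0031 on average, and 29.6% of 693 pairs exceeded 0.1. A replicate block left each count as it was, with 5 members in iMSN-D2RKO saline and 1 in WT cocaine between dark and light and 0 elsewhere. Without read counts, counting error could not be given, and members below 1 FPKM are the least certain.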
